A study of Mus musculus with 6 samples.

Results

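The axonemal dynein heavy chains are the motor proteins of motile cilia and sperm tails, and 10 of their genes were followed here through DNA variant lists of mouse bone marrow and ear. The genes were Dnah1, Dnah2, Dnah3, Dnah5, Dnah6, Dnah8, Dnah9, Dnah10, Dnah11 and Dnah17, taken by name from the gene annotation of each list, which held 24223 gene names in all. They carried 516 of the 177834 distinct sites in the all-variant lists of the 6 samples. Whole marrow and matched ear had been taken from 3 animals, numbered 54, 108 and 136, so that each tissue had n = 3 and each animal gave 1 sample of either tissue. All 6 samples were labelled C57BL/6, tamoxifen-treated and R26CreERT2 Srsf2 P95H, a ubiquitously expressed tamoxifen-inducible Cre that switches on a splicing-factor mutation found in myeloid neoplasms. The animals were 50 to 60 weeks past tamoxifen and moribund. Animals 54 and 108 were male and animal 136 was female. No animal without the Srsf2 allele was included, so ear served as the control tissue of the same animal, although a ubiquitous Cre can act in ear as well. The series text counted 1 animal with hScl-CreERT and R26eYFP, a Cre restricted to blood stem and progenitor cells, without naming which. DNA reads carry no expression, so the tissue labels could not be checked against marker genes.

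A heavy chain is a very large protein whose tail docks on the microtubule doublet and whose ring of ATPase modules, stalk and microtubule-binding tip produce the stroke. Outer arms set beat frequency and inner arms shape the waveform. Dnah5 and Dnah8 encode heavy chains of the outer-arm gamma type, and Dnah9, Dnah11 and Dnah17 those of the beta type, with Dnah8 and Dnah17 used mainly in sperm tails. Dnah2 and Dnah10 encode the pair of chains of the dimeric inner arm, and Dnah1, Dnah3 and Dnah6 chains of monomeric inner arms. Blood cells build no motile cilia and have little use for these genes. The annotated proteins ran from 4083 residues (Dnah3) to 4731 (Dnah8). Dnah17 had no coding change in any list and therefore no annotated length.

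Only a few sequences carry the coding findings. A pair of calls in exon 72 of Dnah11 in animal 54, 1 base apart, each removed 9 bases from the stretch of chromosome 12 at 117915512 to 117915526 (GRCm38, plus strand), and the alleles they describe differ by 1 base, shown in capitals:
Dnah11 reference: accggggtgctcggg
allele of the call at 117915512: aTcggg
allele of the call at 117915513: aCcggg
Counted from 1 at the left end of the shorter allele, the difference was T2C. The first call was annotated p.Ser3898_Val3901delinsMet and the second p.Pro3897_Thr3899del, both in frame. At the 5′ end of the same gene, animal 54 carried substitutions at 118199029 and 118199007, which lie 14 and 36 bases after the RefSeq gene start in the 5′ UTR. They are the capitals in this stretch of chromosome 12, 118199003 to 118199032, written on the minus strand in the direction of transcription (RefSeq, GRCm38.p6):
Dnah11 5′ end: gagCtaccgggcgacccaagactctCgctc
The only length change near a splice site that recurred in all 3 animals was the loss of 1 TC unit, marked in capitals at its first copy, from a repeat near the 3′ end of intron 91 of Dnah8 on chromosome 17 at 30871262 to 30871309, plus strand:
Dnah8 reference: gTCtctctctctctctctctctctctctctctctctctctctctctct
Dnah8 called allele: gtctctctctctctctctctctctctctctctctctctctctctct

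Depth set what could be seen. Each list gives, for every site it holds, the reads of the reference and of the variant allele. The median of their sum over all sites of a sample ran from 18 reads (ear of animal 136) to 31 (marrow of animal 108). The stated mean coverage of 100 reads is a mean and not a median over listed sites, so it cannot be compared directly. At sites in the heavy chain genes the median sum ran from 14 (both samples of animal 136) to 31 (ear of animal 54). A site absent from a list has no read count there, so absence is not a count of 0. The ear list of animal 54 held 67945 sites and its marrow list 43259. Intervals on read shares below are 95% exact binomial (Clopper-Pearson) and cover counting error only.

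Sites listed in both tissues of an animal, the class into which inherited variants fall, came to 159 for animal 54, 45 for animal 108 and 27 for animal 136. These counts also include recurrent sites whose variant reads were all on the reverse strand, described further on. The highest count lay in 1 gene of 1 animal. Dnah11 alone held 140 of the 159 in animal 54, but 4 and 3 in animals 108 and 136. Dnah2 and Dnah9 held 18 and 14 of the 45 in animal 108. Dnah2 also had 8 and 7 in animals 54 and 136, and 10 of its 18 were listed in no other animal. Dnah3 and Dnah5 had no shared site in any animal, and Dnah1 had 1.

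**Figure D1:**
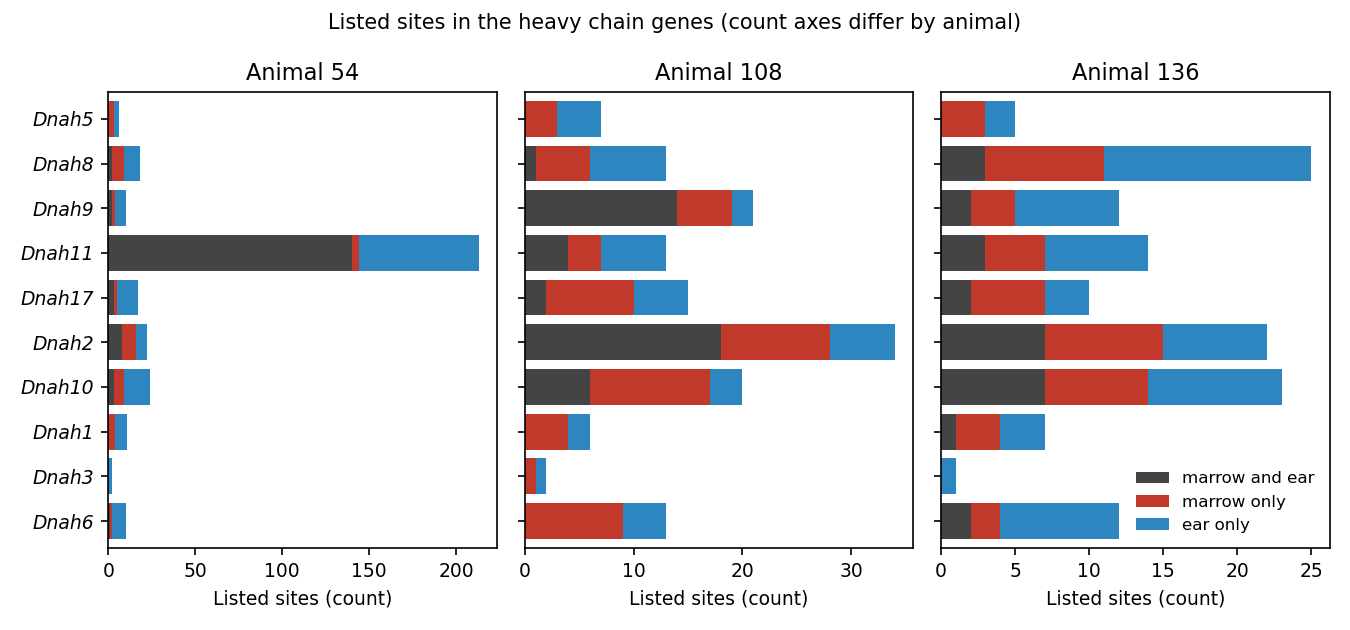
Number of listed sites in each heavy chain gene (rows, outer arm first, then dimeric and monomeric inner arm) for each animal (panels, each with its own count axis), split into sites listed in marrow and ear, in marrow only or in ear only. Dnah11 stands apart in animal 54 with 140 shared and 69 ear-only sites, and Dnah2 and Dnah9 have their most shared sites in animal 108.

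Among the outer-arm beta-type genes, Dnah11 (ENSMUSG00000018581, chromosome 12, 117877982 to 118199043, minus strand) carried a run of sites in animal 54 from end to end. Of its 140 shared sites, 137 were listed in neither tissue of the other animals, and 123 were single-nucleotide changes. Within the gene this was 35.5 shared single-nucleotide sites per 100 kb for animal 54, whereas the density was 0.311 for animal 108 and 0 for animal 136. The first of the 137 sites lay 0.014 kb after the gene start and the last at 325 kb, past the end of the 321 kb gene. The variant made up a median of 48.6% of reads in marrow (lowest 18.2%, highest 90.9%) and 47.2% in ear (24.4% to 72.0%), and 130 of 140 sites in marrow and 135 of 140 in ear lay between 30% and 70%. Marrow exceeded ear at 73 sites and fell short of it at 67, with a median difference of 0.908 percentage points. The levels were near those of heterozygous sites in both tissues. Reads at the 137 sites came from both strands alike, with 43.0% of variant reads and 45.1% of reference reads on the forward strand.

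**Figure D2:**
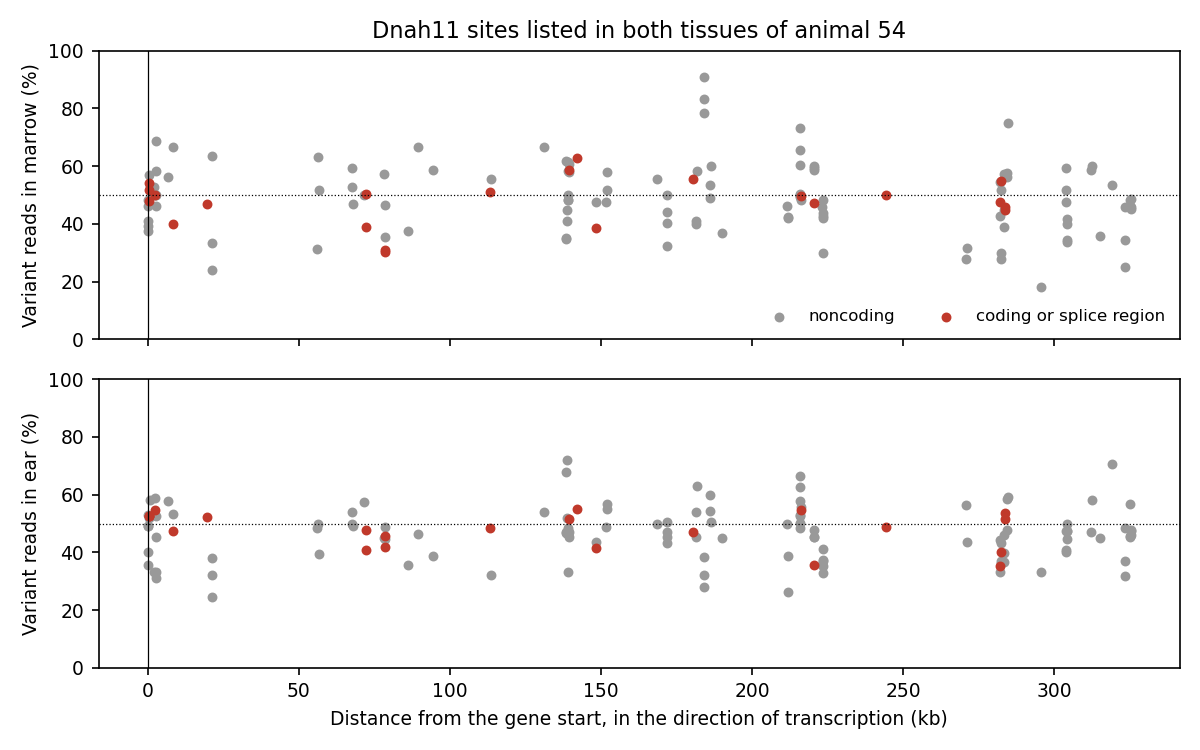
Share of variant reads (%) in marrow (top) and ear (bottom) of animal 54 at the 140 Dnah11 sites listed in both tissues, against distance from the gene start in kb, with the dotted line at 50%. Coding and splice-region sites are red and other sites grey. In marrow 130 of the 140 sites, and in ear 135, lie between 30% and 70% along the whole gene.

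The neighbourhood of Dnah11 showed the same pattern in the same animal. In 1 Mb windows of chromosome 12, animal 54 had 528 shared single-nucleotide sites from 113 to 114 Mb, 972 from 114 to 115 Mb, 376 from 115 to 116 Mb and 362 from 116 to 117 Mb. The windows that hold the gene had 95 (117 to 118 Mb) and 78 (118 to 119 Mb), the next had 46, and the one from 120 to 121 Mb had none. Animals 108 and 136 had at most 5 in any of these windows, against a median of 3 and 2 over all windows of the genome with a shared single-nucleotide site. In these 7 windows from 113 to 120 Mb the median variant share of animal 54 was between 45.8% and 52.7% in marrow and between 45.4% and 50.8% in ear, and from 71.8% to 95.7% of the sites in marrow lay between 30% and 70%. Dnah11 thus lay in the distal part of that stretch, where sites were fewer.

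The coding part of the Dnah11 run comprised 22 shared sites: 6 protein-altering, 14 synonymous and 2 in splice regions. The 5 missense changes were spread over the protein. R41C in exon 1 was read in 87 of 168 marrow reads (51.8%) and 140 of 267 ear reads (52.4%). E240G had 28 of 70 in marrow (40.0%) and 37 of 78 in ear (47.4%), and S434P had 75 of 160 (46.9%) and 120 of 229 (52.4%). I2561V in exon 47 had 20 of 36 in marrow (55.6%) and 33 of 70 in ear (47.1%). G3492D in exon 64 had 109 of 218 (50.0%) and 128 of 262 (48.9%). At none of the 5 did marrow and ear differ at an unadjusted p under 0.05 (Fisher's exact test). The sixth protein-altering change was the in-frame deletion called at 117915513, with 30 of 67 marrow reads (44.8%) and 57 of 106 ear reads (53.8%). Its partner at 117915512 was listed in ear only, at 53 of 103 reads (51.5%). The ear-only list therefore gained a protein-altering deletion at a place where the other form of nearly the same allele was shared. Among the synonymous sites, E3096E had the greatest depth, with 152 of 307 marrow reads (49.5%) and 245 of 447 ear reads (54.8%).

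The 5′ UTR of Dnah11 held 5 shared sites in animal 54. The 2 printed above had 14 of 29 marrow reads and 25 of 70 ear reads (118199029), and 15 of 40 and 38 of 95 (118199007). These were the only listed sites in the RefSeq promoter windows, 250 bases before to 50 after the gene start, of the 9 heavy chain genes with such a window (all but Dnah3). Ear alone listed a further 69 Dnah11 sites in animal 54 and marrow alone 4. The ear-only sites had a median of 19 reads in ear, against 70 at the shared sites, and a median variant share of 46.7%, close to the 47.2% of the shared ones. The part of depth in this imbalance was not tested.

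Dnah9 (ENSMUSG00000056752, chromosome 11, 65831324 to 66168581), a beta-type outer-arm chain of airway cilia, had 14 shared sites in animal 108, 13 of them in no other animal, against 2 in each of the others. The missense change S1350A was read in 101 of 214 reads of marrow (47.2%, 40.4% to 54.1%), while ear had it in 117 of 251 (46.6%, 40.3% to 53.0%). H308Y had 19 of 36 (52.8%) and 24 of 53 (45.3%), and the synonymous G331G in the same exon 13 of 29 (44.8%) and 17 of 32 (53.1%). All 3 coding changes were at about equal shares in both tissues and were absent from the lists of animals 54 and 136. The windows of Dnah9 had 39 and 23 shared single-nucleotide sites in animal 108 and at most 1 in the others.

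Dnah2 (ENSMUSG00000005237, chromosome 11, 69420807 to 69549108), the inner-arm gene further along the same chromosome, had the synonymous changes A4331A, with 52 of 119 marrow reads (43.7%) and 53 of 126 ear reads (42.1%), and P4122P, with 25 of 49 (51.0%) and 15 of 38 (39.5%), again in animal 108 alone. Its window (69 to 70 Mb) held 327 shared single-nucleotide sites of animal 108, but 13 and 12 of animals 54 and 136. The window from 67 to 68 Mb, between the genes, held 391 in animal 108.

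Dnah17 (ENSMUSG00000033987, chromosome 11, 118021723 to 118130719), a sperm-tail outer-arm chain, showed another arrangement. A pair of adjacent intronic sites, 118025430 and 118025431, was listed in all 6 samples. At the first, the variant had 182 of 182 marrow reads and 208 of 208 ear reads in animal 108, so that the lower bounds of the intervals were 98.0% and 98.2%. Animal 54 gave 85 of 171 (49.7%) for marrow and 114 of 255 (44.7%) for ear. Animal 136 gave 117 of 213 (54.9%) and 70 of 165 (42.4%). The second site stood at 100% in either tissue of animal 108. Marrow of animal 54 had 49.7% there and its ear 44.1%. For animal 136 the shares were 54.8% (marrow) and 43.5% (ear). Animal 108 thus read as homozygous and the other animals as heterozygous, in either tissue. The pair lay 1172 kb from the end of Srsf2, the gene with the engineered allele.

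**Figure D3:**
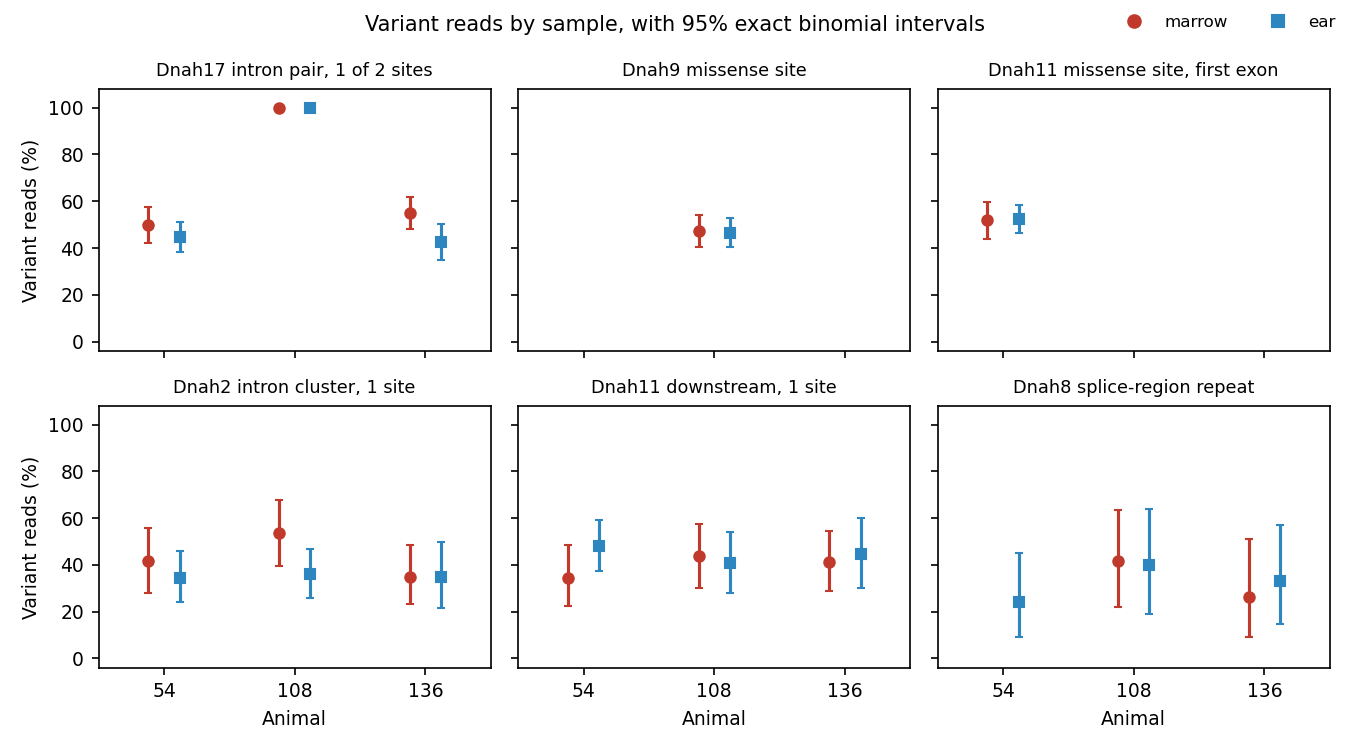
Share of variant reads (%) by animal in marrow (circles) and ear (squares), with 95% exact binomial intervals, at 6 sites; a missing point means that the list does not hold the site. The Dnah17 pair is at 100% in animal 108 and between 42.4% and 54.9% in the others, the Dnah9 and Dnah11 missense sites each occur in 1 animal near 50%, and the lower panels show sites that recur in all 3 animals.

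Outer-arm gamma-type genes had few shared sites. Dnah5 (chromosome 15, 28154854 to 28472045) had none. Dnah8 (chromosome 17, 30626935 to 30875762) had between 1 and 3 per animal. Its TC repeat, annotated as splice region, was listed in 5 of 6 samples, with 6 of 25 ear reads for animal 54 (24.0%). Animal 108 had 10 of 24 marrow reads (41.7%) and 8 of 20 ear reads (40.0%), and animal 136 had 5 of 19 (26.3%) and 7 of 21 (33.3%). The intervals of the 5 samples overlapped.

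The other inner-arm genes had no shared coding site. Dnah10 (chromosome 5, 124725085 to 124834308), the partner of Dnah2 in the dimeric arm, had 3, 6 and 7 shared sites in animals 54, 108 and 136, all noncoding and none confined to the lists of 1 animal. Its sites listed in 5 or 6 samples had no variant read on the forward strand. Of the monomeric-arm genes, Dnah6 (chromosome 6, 73017603 to 73222227) had 1, 0 and 2, Dnah1 (chromosome 14, 31260375 to 31325891) 0, 0 and 1, and Dnah3 (chromosome 7, 119921332 to 120095297) none, with 5 distinct sites in all lists together.

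Recurrence was counted over samples and over the 3 animals. Of the 516 sites, 293 were listed in 1 sample, 185 in 2, and 12 in all 6, and 34 occurred in at least 1 tissue of every animal. With at least 10 reads in each sample, 9 of the 516 were listed in all 6, beside 4444 of the 177834 sites overall in the lists. The other recurrence counts were made for these genes only. Only 2 of the 34 were coding or splice-region sites: the Dnah8 repeat and a Dnah6 splice-region change (chromosome 6, 73161014). That Dnah6 change was listed in a single tissue of each animal, with 15 of 61 reads in ear of animal 54 (24.6%), 11 of 46 in ear of animal 108 (23.9%) and 11 of 48 in marrow of animal 136 (22.9%). The intervals of the 3 samples overlapped, and every one of its variant reads was on the reverse strand. Reference reads there were also nearly all on the reverse strand, for example 45 against 1 on the forward strand in ear of animal 54.

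Of the 21 sites listed in 5 or 6 samples, 15 were substitutions to G, in Dnah2, Dnah10 and downstream of Dnah11. At each of these 15, none of the variant reads was on the forward strand, while reference reads were on the forward strand at between 9.32% and 64.0% (median 44.2%). At 117875783 downstream of Dnah11, for instance, 157 variant reads over the 6 samples were all on the reverse strand, and 53.1% of 211 reference reads were on the forward strand. At the Dnah17 pair, by contrast, the forward strand held 77.7% of variant reads and 77.8% of reference reads at 118025430. In an intron of Dnah2 the sites at 69478254, 69478260, 69478266 and 69478271 fell within one short stretch and share reads. At 69478254 the variant share in marrow was 41.5%, 53.8% and 35.0% for animals 54, 108 and 136, and the corresponding shares in ear were 34.6%, 36.0% and 34.7%. The other sites varied more: at 69478260 ear had 53.3%, 56.6% and 85.7% in the same order, and at 69478271 marrow had 30%, 72.2% and 46.2%, on 10 to 18 reads. The part of the strand difference in these calls was not tested.

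Whether the share of variant reads differed between marrow and ear was tested at every site of an animal listed in both tissues with at least 10 reads in each, by two-sided Fisher's exact test with Benjamini-Hochberg adjustment over all such sites. No heavy chain site passed an adjusted p of 0.05 in any animal: 0 of 154, 0 of 42 and 0 of 21 for animals 54, 108 and 136. Over all sites tested the share that passed was 0.0346%, 0.0327% and 0.0181%. Without adjustment, 7, 5 and 4 heavy chain sites had a p under 0.05, which is 4.55%, 11.9% and 19.0% of those tested, beside 8.41%, 7.43% and 6.22% of all sites. These were few sites, and neighbouring ones are not independent. Of the 7 in animal 54, all in Dnah11, 2 were synonymous coding sites (A3161A, with 47.2% in marrow and 35.7% in ear, and V1225V, with 30.3% and 45.5%) and 3 were intronic sites within 6 bases of each other, 118015106 to 118015112, where 10 of 11, 10 of 12 and 11 of 14 marrow reads were variant. In ear 10 of 26, 7 of 25 and 9 of 28 were, and the lowest of the 3 adjusted p-values (Fisher's exact test) was 0.323. In animal 108, 2 Dnah2 intronic sites 18 bases apart stood at 64.9% and 63.4% in marrow and 48.1% and 48.2% in ear, with adjusted p of 0.444 and 0.524 by the same exact test.

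The lowest p in animal 108 belonged to an intronic Dnah9 site (chromosome 11, 66107844), where marrow had 23 variant reads of 43 (53.5%, 37.7% to 68.8%) and ear 5 of 29 (17.2%). Fisher's exact test gave p = 0.00284, and 0.304 after adjustment over 48977 sites. VarScan2 listed the same site as somatic, with 5 of 26 ear reads and a somatic p of 0.00458 as given by the authors' deposited table. The site was present in the ear list too, as was the loss-of-heterozygosity call in Dnah11 given further on, and no other VarScan2 call in these genes was.

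Over the 3 animals together, 9 heavy chain sites were listed in all 6 samples with at least 10 reads in each. A Cochran-Mantel-Haenszel test stratified by animal and adjusted over 4444 sites called 0 of the 9, where it called 0.0225% of all sites, and 2 of 9 without adjustment, beside 8.06% of all. The 2 were the adjacent Dnah17 sites. The first was higher in marrow by 5.002 percentage points in animal 54 and 12.5 in animal 136 and equal in animal 108, a mean of 5.84 ± 6.29 (SD, n = 3 animals). Its adjusted p across all sites was 0.474. Animal 108 had no reference read in either tissue at this site, so its difference of 0 cannot vary. The animals with both alleles, 54 and 136, had a mean difference of 8.75 ± 5.31 points (SD, n = 2), both higher in marrow. At the Dnah11 site 117875779 marrow was lower than ear in all 3 animals, with a mean of marrow minus ear of -8.91 ± 4.48 percentage points (SD). Its adjusted p by the same test was 0.681. Its neighbour 117875789 went the other way in all 3 animals, with a mean of 7.77 ± 6.11 points (SD). The site between them, 117875783, was lower in marrow in animals 54 and 136 and higher in animal 108. At each of these sites every variant read was on the reverse strand.

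Coding sites listed in only 1 tissue were few. Marrow alone had 1, 0 and 2 in animals 54, 108 and 136, and ear alone had 4, 3 and 1, with splice-region sites counted. The recurrent Dnah6 site at 73161014 was counted in ear of animals 54 and 108 and in marrow of animal 136. The ear count of animal 54 also held the Dnah8 repeat, listed in both tissues of animals 108 and 136. It held too the Dnah11 deletion at 117915512, whose other form was shared. The log2 ratio of marrow to ear counts, each plus 0.5, was -1.58, -2.81 and 0.74, a mean of -1.22 ± 1.80 (SD, n = 3). The exact sign-flip permutation test gave two-sided p = 0.5, and 3 animals cannot give less than 0.25. The excess in ear was smaller than the spread between animals and turned round in animal 136. Over all genes, protein-altering changes in marrow alone numbered 479, 502 and 390 in animals 54, 108 and 136. Ear alone had 493, 543 and 542. Synonymous changes numbered 181, 221 and 160 in marrow alone and 302, 230 and 178 in ear alone. Ear thus had more of both kinds over all genes in every animal.

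By gene, the tissue-private protein-altering changes were single events at low shares, except in Dnah11. Marrow of animal 54 had T4099A of Dnah8 in 3 of 22 reads (13.6%, 2.91% to 34.9%), all 3 on the forward strand. Ear of animal 108 had A2168V of Dnah5, the gamma-type outer-arm chain most often mutated in primary ciliary dyskinesia, in 6 of 60 reads (10%, 3.76% to 20.5%), and P2508S of Dnah10 in 4 of 35 (11.4%, 3.20% to 26.7%). Ear of animal 136 had S3523L of Dnah6, a monomeric inner-arm chain, in 2 of 14 (14.3%, 1.78% to 42.8%). None of these intervals reached 50%. The synonymous changes were C758C of Dnah1, a chain needed for sperm-tail structure, in marrow of animal 136 (4 of 31, 12.9%) and P2179P of Dnah11 in ear of animal 54 (8 of 16, 50.0%).

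The somatic lists compared marrow with ear of the same animal. VarScan2 listed no coding somatic change in any heavy chain gene, where it listed 325 over all genes and animals, so that a count of 0 had an upper 95% Poisson bound of 3.69 calls. With 325 calls among 24223 gene names, a count of 0 in 10 genes does not set these genes apart. VarScan2 listed 5 somatic intronic calls and 1 call labelled loss of heterozygosity. Besides the Dnah9 site these were in Dnah17 (118036203, animal 108, 5 of 24 marrow reads and 0 of 22 ear reads; 118034077, animal 54, 13 of 43 and 9 of 78), Dnah6 (73212851, animal 136, 5 of 22 and 0 of 20) and Dnah2 (69454279, animal 54, 4 of 10 and 2 of 29). The call labelled loss of heterozygosity was a Dnah11 intronic insertion at 117978240 in animal 54, with 7 of 8 marrow reads and 11 of 28 ear reads. It rests on few marrow reads. Nearby in the same marrow, A3161A had 85 of 180 variant reads (47.2%) and the intronic site 117978641 had 37 of 63 (58.7%). Whether an allele was lost there was not tested.

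Strelka, the other somatic caller, listed 21 calls in the 10 genes, 16 of them coding (95% Poisson interval 9.15 to 25.98). Animals 54, 108 and 136 had 5, 3 and 8. They fell in 8 genes, all but Dnah6 and Dnah17, beside 13.1% of all gene names with such a call. Among the 48 other genes whose annotated protein was at least as long as that of Dnah3, 95.8% had a coding Strelka call, and the 9 heavy chain genes of known length had 8. Known lengths come from the lists themselves, so each of these genes had a coding change somewhere. The heavy chain genes had 0.134 coding Strelka calls per kb of coding sequence and the other long genes 0.147. Per gene the median was 1 (0 to 4) and 2 (0 to 8). The difference in rate from the other long genes was within the counting error of the 16 calls. Over all 6413 genes of known length, to which the same limit applies, the rate was 0.253 per kb. Among the heavy chain genes Dnah1 had the most, with 4 calls (0.314 per kb), then Dnah2 and Dnah11 with 3 each (0.224 and 0.223).

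Of the 16 coding calls 11 were protein-altering and 5 synonymous. The only high-impact changes in any list were 2 premature stops. E2079* of Dnah1 was called in animal 136 with a Strelka quality of 15, and W4371* of Dnah11 in animal 54 with a quality of 20. Strelka quality is a phred-scaled confidence that the call is somatic, as deposited by the authors. Neither stop was in the all-variant list of either tissue of its animal, and the Strelka lists analysed give no read counts, so their shares of reads are not known. The stop in Dnah1 fell 48.9% along the protein and that in Dnah11 at 97.4%, in the last stretch of the chain.

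The missense calls, in the outer-arm genes, were R532M (quality 27, animal 54) and K597N (19, animal 108) of Dnah11, A1258V of Dnah9 (23, animal 108), and R2180L (27, animal 108) and H1931R (41, animal 136) of Dnah5. In the dimeric inner-arm genes they were V1155A of Dnah10 (64, animal 54, the highest quality of the 16) and C4021Y (24) and M2259I (35) of Dnah2 in animal 136. In the monomeric inner-arm genes there was F892L of Dnah1 (20, animal 136). The synonymous calls were T1796T (animal 54) and C758C (animal 136) of Dnah1, L3556L of Dnah8 (animal 54), A4070A of Dnah2 and S3668S of Dnah3 (both animal 136). No residue was hit more than once by Strelka. R2180L of Dnah5 lay 36 bases from A2168V, the change listed in ear of the same animal, in the same exon 39; the changes were distinct, and neither was in the other's list.

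Only 1 of the 16, C758C of Dnah1, was also in the marrow list of its animal (4 of 31 reads, 12.9%, 3.63% to 29.8%), and none was in the ear list. Over all genes 9.39% of coding Strelka calls were in the marrow list. The median quality of the 16 was 25.5, against 25 for all coding calls, and 5 of the 16 had a quality of at least 30. By base change, 7 of the 16 were C to A (43.8%, 19.8% to 70.1%) and 6 were C to T (37.5%, 15.2% to 64.6%), where all coding substitutions of the Strelka lists had 39.8% and 34.0%, counting each change from its pyrimidine. With 16 calls, no difference from the whole list in base change was detectable.

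Along the proteins, shared changes were found from 0.869% to 97.1% of the length (median 43.2%) and Strelka changes from 11.9% to 97.4% (median 44.7%), so neither was limited to one end. In the first 50% of the length lay 15 of 25 shared, 3 of 7 tissue-private and 10 of 16 Strelka changes.

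**Figure D4:**
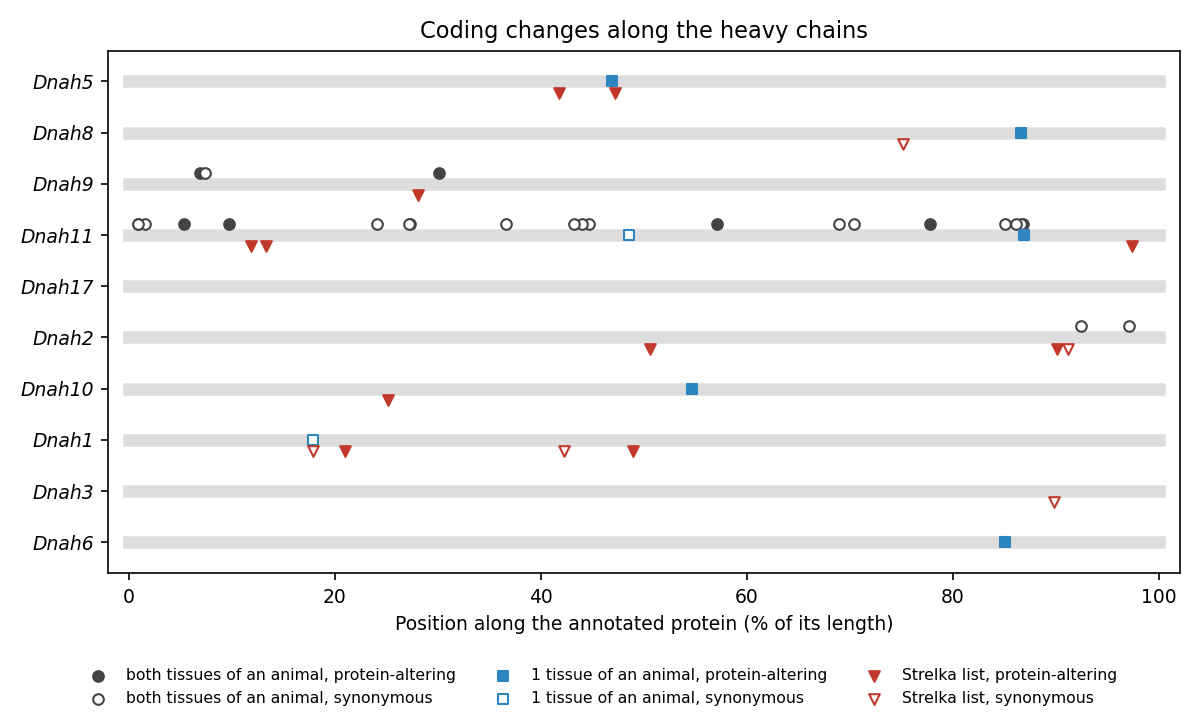
Coding changes along each annotated heavy chain, as % of protein length (horizontal axis), for changes shared by both tissues of an animal (circles), listed in 1 tissue (squares) and in the Strelka lists (triangles); filled symbols are protein-altering and open symbols synonymous. Shared changes sit mostly in Dnah11, while the 16 Strelka changes are spread over 8 genes; Dnah17 has none, and its bar has no known length.

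The share of protein-altering changes was counted in each list. Of shared coding changes, 8 of 25 were protein-altering (32.0%, 14.95% to 53.5%), among marrow-private ones 1 of 2, among ear-private ones 4 of 5 and among Strelka calls 11 of 16 (68.8%, 41.3% to 89.0%). The ear-private 4 included the Dnah11 deletion at 117915512, whose other form was shared. Over all genes the shares were 39.4%, 70.9%, 69.0% and 75.0%. Against ear-private in place of shared changes, the mean difference of the Strelka share over animals 54, 108 and 136 was -9.17 points. The Strelka share was 60.0% against 50% in animal 54 and 100% against 100% in animal 108. Only in animal 136 was it lower, at 62.5% against 100%, and the ear-private share there was 1 change. In animal 54, the share was 30% among shared and 60.0% among Strelka changes, and in animal 108 it was 40.0% and 100%. The difference was 45.0 ± 21.2 percentage points (SD, n = 2), as animal 136 had no shared change of either kind. The exact sign-flip permutation test gave p = 0.5, the smallest that 2 animals allow. In both animals it had the direction seen over all genes, and all of the shared coding changes of animal 54 were in the Dnah11 run.

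Related genes were counted for comparison. The 5 other axonemal heavy chains, Dnah7a, Dnah7b, Dnah7c, Dnah12 and Dnah14, had 1 coding Strelka call (in Dnah12) and 1 shared coding site (Dnah14 in animal 136). The cytoplasmic heavy chains Dync1h1, which all cells use, and Dync2h1, of transport within cilia, had 6 and 2 coding Strelka calls and no shared coding site. Of 36 symbols for other axonemal chains, assembly factors and radial spoke genes, 30 were found in the lists, and 5 of them had 6 coding Strelka calls, 2 of these in Hydin, a central-pair protein. They had 1, 8 and 1 shared coding sites in animals 54, 108 and 136, where the heavy chain genes had 22, 6 and 1; in animal 108, 4 were in Drc1, a regulator of axonemal dyneins, and 3 in Ccdc103. Coding sites shared by both tissues occurred in 4 of the 10 heavy chain genes (Dnah2, Dnah8, Dnah9 and Dnah11), in 52.1% of the other long genes and in 13.2% of all gene names. The 22 of Dnah11 in animal 54 were reached or passed by 8 of 57 long genes, Dnah11 included, each gene taken in the animal with its most shared coding sites. None of these related genes had a coding VarScan2 somatic call, and no site in them passed the adjusted marrow-against-ear Fisher test in any animal. Without adjustment, 4 of 33, 3 of 56 and 0 of 19 sites of the other chains, assembly and spoke genes had a p under 0.05 in animals 54, 108 and 136, and 1 of 4 in the other axonemal heavy chains of animal 108.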

How the data were processed

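Exomes were captured with a 50 Mb mouse exon kit. FastQC, Bowtie2 and SAMtools are named in the submitters' processing notes, as are the builds GRCm38 and mm9; all 36 coding sites of the heavy chain genes lay inside their GRCm38 RefSeq genes. The deposited lists give counts of reads per allele, the VarScan2 lists of the authors give a somatic p-value, and other deposited fields (alleles, SnpEff annotations, Strelka quality as a score) were used per the file headers. For each site and gene the annotation of greatest impact was kept, with coding meaning an impact above MODIFIER. The 10 genes, the lists of related genes and the tests were chosen with earlier results of these data known. Sites were named where they were a protein-altering call in a somatic list, of high impact, protein-altering in both tissues of an animal, or the tissue-private protein-altering site with the most variant reads in its gene; synonymous, recurrent intronic and lowest-p sites were chosen after their values were seen. Python 3.11.15, NumPy 2.4.6 and SciPy 1.17.1 were used. When 200 sites of a simulated read table were shifted by 0.4 in fraction at the measured depths, Fisher's test recovered 61.0%, 61.5% and 57.5% of them in animals 54, 108 and 136, and the stratified test 98.5%. Same-numbered samples are of the same animal, so pairing follows from the labels; whether the tissues were prepared separately is not stated. Positions of the ATP-binding loops were not analysed here, and lengths are those in the annotations.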

Additional observations from a re-analysis of the deposited data

How the results depend on the processing

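No heavy chain site passed the adjusted threshold under any alternative run (at least 20 reads, adjustment over coding sites only, single-nucleotide sites only, the exact conditional test). Over the 3 animals the count was 0 with no replicate block, that is, with reads summed over animals, and from 0 to 0 on leaving out each animal. The log2 ratio of tissue-private coding sites stayed negative, from -2.20 to -0.42 on leaving out each animal, and was -0.61 with intronic and flanking sites included, an alternative chosen after seeing the data; with no replicate block its exact permutation p was 0.3. Against ear-private in place of shared sites, the protein-altering share of Strelka calls was lower, by -9.17 points, the reverse of the main 45.0; leaving out each animal gave 30 to 60, and the ear-private difference from shared sites was 40, 20 to 60 on leaving out each animal and 65 with at least 20 reads, while the marrow-private one rested on animal 54 alone (70, also with at least 20 reads). A Strelka quality of at least 30 left 5 of 16 coding calls, and leaving out each animal left 8 to 13, the fewest without animal 136. Shared coding sites averaged 9.67 per animal, and 3.5 to 14 on leaving out each animal, the fewest without animal 54. At least 5 variant reads left no marrow-private share to compare, and the split of the proteins by ATP-binding loop was not run. The shared heavy chain sites of animal 136 had a median of 21 reads in marrow, and a site at that depth must differ greatly between tissues to pass.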
